A study of Mus musculus with 8 samples.

Results

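Mature mouse oocytes were compared for 6 genes that act in ribosome assembly and in cytosolic protein synthesis. They are Rsl1d1 (nucleolar ribosome assembly), Rps14 (small ribosomal subunit), Eif3d and Abcf1 (initiation), Hbs1l (rescue of stalled ribosomes) and Trmt6 (tRNA methylation). They were picked by gene name from 417 gene names in the deposited table, in which they hold 7 of 469 rows. Metaphase II oocytes of L/L cre females (4 libraries labelled KO) were set against metaphase II oocytes of L/L females (4 libraries labelled Ctrl, genotype WT), all at 6 months of age. Both groups carry the L/L allele, and Cre, a recombinase that cuts out marked stretches of DNA, is present in the KO group. The labels name neither the gene flanked by the marks nor the promoter that drives Cre, so no check of the deletion was possible. The design text places the study among changes caused by raised reactive oxygen species in the mitochondrial matrix.

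Each library was made from merged oocytes by the Smart-seq2 protocol, which amplifies whole cDNAs from a few cells, and the labels do not say how many females were merged or that libraries came from separate ones. The p-values therefore measure the spread between these libraries, which may be technical. The values are TPM, in which reads per base of transcript are set to a common total in each library, and they keep no sequencing depth, which is unknown. The smallest difference between group means in any row was 2.04-fold, so the table is a list of rows that already differ, and the 6 genes were chosen with their KO and Ctrl values known. Their differences are given as a description, without a test. The listed rows summed to 12869 to 19916 TPM in the KO libraries and to 32000 to 42538 TPM in the Ctrl libraries. No gene of the marker lists for oocytes (17 genes), cumulus and granulosa cells (19), stroma and endothelium (11), or blood and immune cells (11) had a row, so the cell type and an admixture of other cells were not analysed here.

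Ribosomes are assembled in the nucleolus from ribosomal RNA and ribosomal proteins by a large set of transient assembly factors, and the finished subunits meet on a messenger RNA with the help of initiation factors. Rescue factors release ribosomes that stall, and modified tRNAs keep decoding efficient. A metaphase II oocyte transcribes little or nothing and lives on messenger RNAs and ribosomes stored during growth, so a transcript level in it reflects what was stored and what has since been degraded. The deposited rows carry a gene name but no transcript identifier. A row is read here as 1 transcript, and its value is not the whole output of its gene.

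In KO oocytes 5 of the 6 genes were lower than in Ctrl oocytes and Rps14 was higher, in a table where 248 of 402 genes tested were lower. The KO libraries lay wholly below the Ctrl libraries for Rsl1d1, Hbs1l and Trmt6. That is 3 of 6 genes, in a table where 36.3% of all 402 genes tested lay wholly below. Nothing is read from either count, since the same contrast chose the genes. The groups overlapped for Rps14, Eif3d and Abcf1. The size of the difference ran from that of Rsl1d1, the lowest of all 402 genes, to those of Eif3d and Abcf1, which stood at the median of the table (log2 difference -1.05 over all genes).

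**Figure D1:**
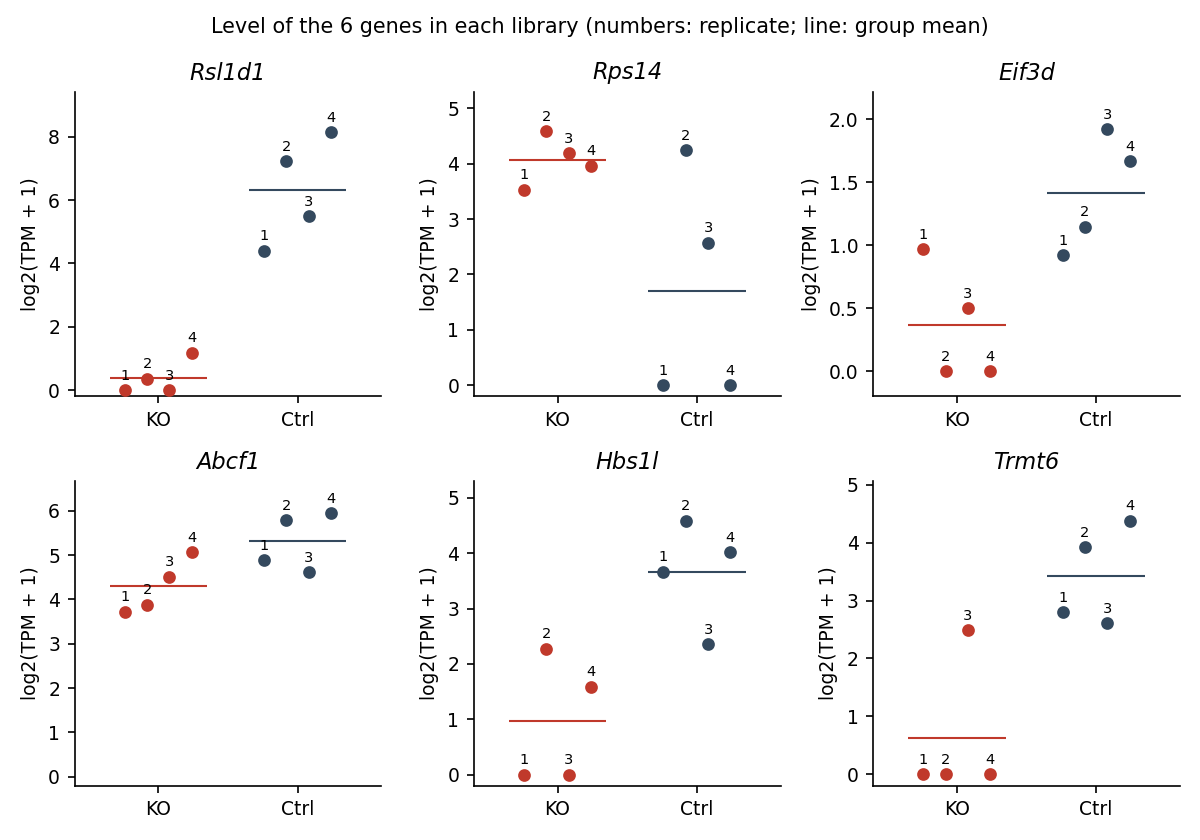
Level of each of the 6 genes as log2(TPM + 1) on the vertical axis, with the 4 KO libraries to the left of the 4 Ctrl libraries, numbered by replicate, and a line at each group mean (Trmt6 is the sum of its 2 rows). KO libraries lie below all Ctrl libraries for Rsl1d1, Hbs1l and Trmt6, and Rps14 is higher in KO although Ctrl library 2, at 17.96 TPM, lies among the KO libraries.

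For 4 of the 6 genes a stretch of 250 bases before the start was taken from the RefSeq promoters (GRCm38.p6). Rps14 and Trmt6 are not among them, so their promoters were not searched. The stretches are shown for each gene of the 6 that was matched and could be printed, and they are cut to the bases that no GENCODE M21 exon covers, 5′ to 3′ on the strand of the gene. Capitals mark the searched motifs CCGGAAG (an Ets-type site) and CACGTG (an E-box), each on either strand.
Rsl1d1, chr16:11203332-11203365, minus strand, 34 bases: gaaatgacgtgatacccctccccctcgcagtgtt
Eif3d, chr15:77970825-77971074, minus strand, 250 bases: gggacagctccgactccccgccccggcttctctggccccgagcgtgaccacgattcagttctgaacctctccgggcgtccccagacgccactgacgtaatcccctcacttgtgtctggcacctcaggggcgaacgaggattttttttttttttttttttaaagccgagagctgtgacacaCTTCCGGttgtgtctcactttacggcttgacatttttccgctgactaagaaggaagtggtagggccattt
Abcf1, chr17:35969762-35970000, minus strand, 239 bases: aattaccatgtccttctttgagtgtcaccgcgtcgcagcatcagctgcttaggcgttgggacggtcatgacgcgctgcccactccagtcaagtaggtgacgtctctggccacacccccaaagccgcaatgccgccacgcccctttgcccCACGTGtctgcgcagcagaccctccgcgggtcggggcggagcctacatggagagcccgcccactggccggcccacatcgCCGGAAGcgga
Hbs1l, chr10:21295729-21295978, plus strand, 250 bases: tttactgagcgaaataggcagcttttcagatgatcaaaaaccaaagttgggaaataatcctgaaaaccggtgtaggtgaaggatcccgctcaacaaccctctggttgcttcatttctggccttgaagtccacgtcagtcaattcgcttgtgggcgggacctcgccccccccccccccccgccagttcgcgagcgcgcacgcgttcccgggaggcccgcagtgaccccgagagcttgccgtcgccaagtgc
The Rsl1d1 stretch is short because annotated exons bound it on both sides, and the annotated Rsl1d1 gene itself reaches 11203331. Over the full 250 bases, CCGGAAG was present at Rsl1d1, Eif3d and Abcf1, against 6.91% of all 32851 promoter windows of this length, and CACGTG was present at Abcf1, against 6.02%. CCAAT (33.8% of windows) and TATAAA (12.4%) matched none of the 4, and the motifs do not overlap one another. A match describes letters, not a bound site.

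Rsl1d1 encodes a nucleolar protein of ribosome assembly that is also known, in human cells, for slowing replicative senescence. It lies on chromosome 16 from 11192970 to 11203331 (GRCm38) and has 5 annotated transcripts, of which 2 are protein coding. It had 0, 0.280, 0.00334 and 1.26 TPM in KO libraries 1 to 4, against 20.1, 148, 43.8 and 283 TPM in Ctrl libraries 1 to 4. All KO libraries were at or close to 0, and the lowest Ctrl library was far above the highest KO library. The Ctrl libraries themselves differed 14.0-fold between the highest and the lowest, and the standard deviation of log2(TPM + 1) among them, 1.69, exceeded that of 97.5% of the genes tested (median 0.593). The log2 difference in log2(TPM + 1) was -5.93 ± 0.68 (SE, limma). It was -4.56 without Ctrl libraries 2 and 4, its highest, and it depended most on the pseudocount, at -8.18 with 0.1 TPM added and -4 with 5 TPM added.

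Rps14 encodes a protein of the small ribosomal subunit, and loss of 1 copy of it is known in humans for a form of anaemia with poor red cell formation. It was the gene among the 6 that was higher in KO, with 10.5, 23.0, 17.2 and 14.6 TPM in KO libraries 1 to 4, against 0.00145, 17.96, 4.97 and 0 TPM in Ctrl libraries 1 to 4. The KO libraries were alike, within 2.18-fold, whereas Ctrl libraries 1 and 4 were at or near 0 and Ctrl library 2 lay within the KO range. Among Ctrl libraries the standard deviation of log2(TPM + 1) was 2.08, above 99.5% of the genes tested, while in KO it was 0.441, above 31.3% of them. The log2 difference was 2.36 ± 0.78 (SE, limma), and it was 1.26 with a pseudocount of 5 TPM and 4.01 with 0.1 TPM. Rps14 has 10 annotated transcripts, 8 of them protein coding, and 1 row in the table. Its locus, on chromosome 18 from 60747098 to 60778546, overlaps Ndst1 on the opposite strand, and Gm5805 and Gm6204 hold copies of at least 95% identity over 200 bp or more. Reads from these could have been assigned to either gene.

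Eif3d encodes the subunit of initiation factor 3 that can bind the messenger RNA cap. The listed Eif3d row was scarce in both groups, at 0.955, 0, 0.413 and 0 TPM in KO libraries 1 to 4, against 0.894, 1.22, 2.79 and 2.18 TPM in Ctrl libraries 1 to 4. KO library 1 lay just above Ctrl library 1, so the groups overlapped. The log2 difference of -1.05 ± 0.36 (SE, limma) was the median of the table. With a pseudocount of 5 TPM it was -0.34 and with 0.1 TPM it was -2.66. The gene, on chromosome 15 from 77958998 to 77970813, has 8 annotated transcripts, of which 2 are protein coding, and the antisense gene Gm17638 overlaps it.

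Abcf1 encodes an ATP-binding cassette protein without a membrane part, which binds ribosomes and initiation factor 2 and favours initiation. It had no value at 0, with 12.2, 13.7, 21.8 and 32.4 TPM in KO libraries 1 to 4, against 28.7, 54.2, 23.4 and 60.8 TPM in Ctrl libraries 1 to 4. KO library 4 lay above Ctrl libraries 1 and 3. The means were 20.1 ± 9.27 TPM in KO and 41.8 ± 18.5 TPM in Ctrl (SD, n = 4 each), and the log2 difference was -1.01 ± 0.43 (SE, limma). It was -0.45 without Ctrl libraries 2 and 4, -0.56 under quantile normalization and -0.23 under median-of-ratios scaling, which moved the median of all genes to -0.31. The miRNA gene Mir877 lies within Abcf1, on chromosome 17 from 35956819 to 35969761.

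Hbs1l encodes a GTPase that works with Pelota to free ribosomes stalled on a messenger RNA, and in humans a short form of it links ribosomes to the RNA exosome. It had 0, 3.83, 1.63e-08 and 1.998 TPM in KO libraries 1 to 4, against 11.7, 23.0, 4.12 and 15.2 TPM in Ctrl libraries 1 to 4. KO library 2 came close to Ctrl library 3 without reaching it. The log2 difference was -2.69 ± 0.63 (SE, limma), the 12th lowest of 402, and it ran from -3.13 to -2.37 when any 1 library was left out. It was -4.43 with a pseudocount of 0.1 TPM and -1.45 with 5 TPM. Hbs1l lies on chromosome 10 from 21295979 to 21368898 and has 10 annotated transcripts, 6 of them protein coding. The antisense gene 4930455C13Rik overlaps it and is among 4 genes that share at least 200 bp of near-identical sequence with it.

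Trmt6 encodes the partner subunit of the enzyme that places a methyl group on an adenine of tRNAs, which stabilises the initiator tRNA in yeast. It was the gene among the 6 with 2 rows. The first row was listed at 0 in all 4 KO libraries, against 1.11, 4.27, 0.820 and 7.82 TPM in Ctrl libraries 1 to 4. The second row was at 0 in 3 KO libraries and at 4.61 TPM in KO library 3, against 4.85, 9.88, 4.28 and 12.0 TPM in Ctrl libraries 1 to 4. KO library 3 thus lay above Ctrl library 3 in the second row, while the first row did not overlap. Summed, Trmt6 had 0, 0, 4.61 and 0 TPM in KO libraries 1 to 4, against 5.96, 14.2, 5.10 and 19.8 TPM in Ctrl libraries 1 to 4, without overlap. The log2 difference of the sum was -2.80 ± 0.64 (SE, limma), the 8th lowest of 402, and it was -3.43 without KO library 3. With a pseudocount of 0.1 TPM it was -5.21 and with 5 TPM it was -1.36. GENCODE M21 annotates 6 transcripts of Trmt6 (chromosome 2, 132804207 to 132816055), of which 1 is protein coding, so if the authors' annotation matches it, at most 1 of the 2 rows can be the coding transcript.

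**Figure D2:**
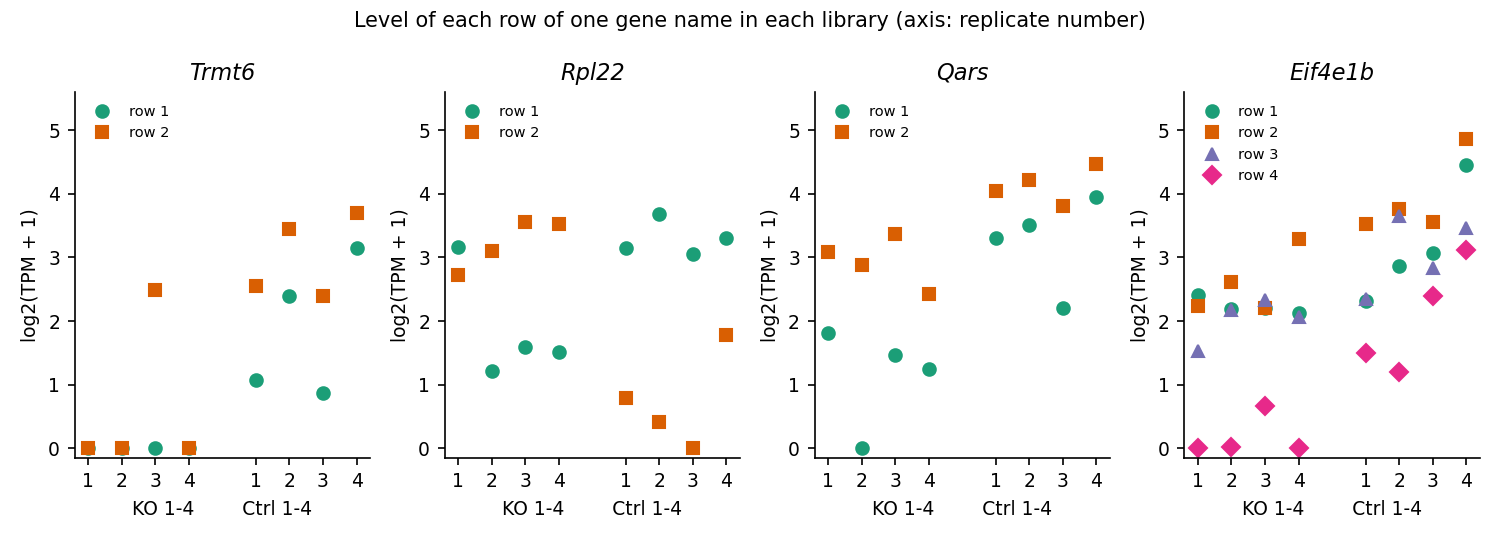
Rows of the 4 translation genes with several rows, as log2(TPM + 1) on the vertical axis, with KO libraries 1 to 4 to the left of Ctrl libraries 1 to 4 and a symbol for each row. Both Trmt6 rows, both Qars rows and all 4 Eif4e1b rows have lower group means in KO, while the second Rpl22 row is higher in all 4 KO libraries than in any Ctrl library.

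The 6 genes were set beside the other genes of 9 lists of the translation machinery, which hold 547 names of the GENCODE annotation and of which 20 had a row. Without the 6 there were 14, among them no elongation, termination or mTOR pathway gene. Of these 14, 12 reached a mean of 1 TPM and were tested in the limma fit across all 402 genes. In KO 10 fell, 1 rose and 1 did not pass (limma, adjusted p under 0.05), in a table where 57.2% of all genes passed as lower and 36.6% as higher. Their median log2 difference was -1.08, against -1.05 for all 402 genes. Under median-of-ratios scaling 11 were tested, of which 3 passed as lower and 2 as higher. These counts and the adjusted p-values of single genes share the selection of the table. Neither is independent evidence of a difference or of its direction.

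Among assembly factors, Eri1, an exonuclease that trims the end of a small ribosomal RNA, had 0.613, 0, 0 and 0 TPM in KO libraries 1 to 4, against 8.66, 5.80, 8.22 and 4.43 TPM in Ctrl libraries 1 to 4. Its log2 difference was -2.75 ± 0.42 (SE, limma adjusted p = 0.000664). Ddx27, a helicase of large-subunit assembly, was at 0.459 to 2.26 TPM in KO and 2.93 to 8.50 TPM in Ctrl (log2 difference -1.56 ± 0.47 SE, limma adjusted p = 0.0147). The groups did not overlap for either gene. Ltv1, which accompanies the small subunit out of the nucleus, averaged 6.43 ± 1.21 TPM in KO and 14.2 ± 3.37 TPM in Ctrl (SD, n = 4 each, limma adjusted p = 0.0304). Bms1, a GTPase of early small-subunit assembly, and Ftsj3, a methyltransferase of ribosomal RNA processing, passed narrowly (limma adjusted p = 0.0493 and 0.0495). Nmd3, the export adaptor of the large subunit, rose to 7.40 ± 2.78 TPM in KO, against 3.05 ± 1.87 TPM in Ctrl (SD, n = 4 each, limma adjusted p = 0.049), with overlap between the groups. Rpf2, a factor of large-subunit assembly, did not reach the mean of 1 TPM: it was at 0, 0, 0.00473 and 0 TPM in KO libraries, against 0.423 to 3.29 TPM in Ctrl libraries.

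Among initiation factors, Eif2s3x, the X-linked gene for the gamma subunit of initiation factor 2, was at 0 to 1.36 TPM in KO and 2.50 to 7.47 TPM in Ctrl (log2 difference -1.41 ± 0.46 SE, limma adjusted p = 0.0191). Eif4e1b, the oocyte form of the cap-binding protein, summed over 4 rows to 12.4 ± 2.25 TPM in KO and 36.8 ± 20.4 TPM in Ctrl (SD, n = 4 each, limma adjusted p = 0.0144). In 3 of its 4 rows the KO libraries lay wholly below the Ctrl libraries. These factors stood near Eif3d and Abcf1 in the size of their difference.

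Of the genes that act on tRNAs, Cdkal1, which modifies a lysine tRNA, was at 0 to 1.04 TPM in KO and 1.32 to 2.93 TPM in Ctrl (limma adjusted p = 0.016). Qars, the glutamine tRNA synthetase, summed over 2 rows to 8.30 ± 2.67 TPM in KO and 26.2 ± 7.94 TPM in Ctrl (SD, n = 4 each, limma adjusted p = 0.0105). Sars, the serine tRNA synthetase, averaged 10.8 ± 3.64 TPM in KO and 22.8 ± 9.95 TPM in Ctrl (SD, n = 4 each, limma adjusted p = 0.0449), with overlap. Gigyf2, which represses messages on which ribosomes collide, did not reach a mean of 1 TPM and was at 0 in 3 KO libraries and 0.573 TPM in KO library 4, against 0.182 to 2.49 TPM in Ctrl libraries.

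Rpl22, which encodes a protein of the large subunit, is the cytosolic ribosomal protein gene with a row beside Rps14. Its sum did not pass (11.9 ± 2.06 TPM in KO and 9.85 ± 2.25 TPM in Ctrl, SD, n = 4 each, limma adjusted p = 0.517). Its first row had 7.98, 1.32, 2.01 and 1.86 TPM in KO libraries 1 to 4, against 7.90, 11.8, 7.32 and 8.86 TPM in Ctrl libraries 1 to 4. Its second row had 5.61, 7.61, 10.8 and 10.5 TPM in KO libraries 1 to 4, against 0.727, 0.330, 0.00309 and 2.42 TPM in Ctrl libraries 1 to 4. When rows were tested apart, the first passed as lower (limma adjusted p = 0.023) and the second as higher (limma adjusted p = 0.00304). The rows of this gene thus differed in opposite directions. Whether other transcripts of Rps14, which has 1 row, did the same was not analysed here. Rpl22 shares sequence of at least 95% identity over 200 bp or more with Gm12005. So do Eif2s3x with Gm2223, Eif4e1b with Gm5705, Gigyf2 with Kcnj13 and Rpf2 with Gm7733. How reads were divided between such genes, or between the rows of Rpl22, was not tested.

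**Figure D3:**
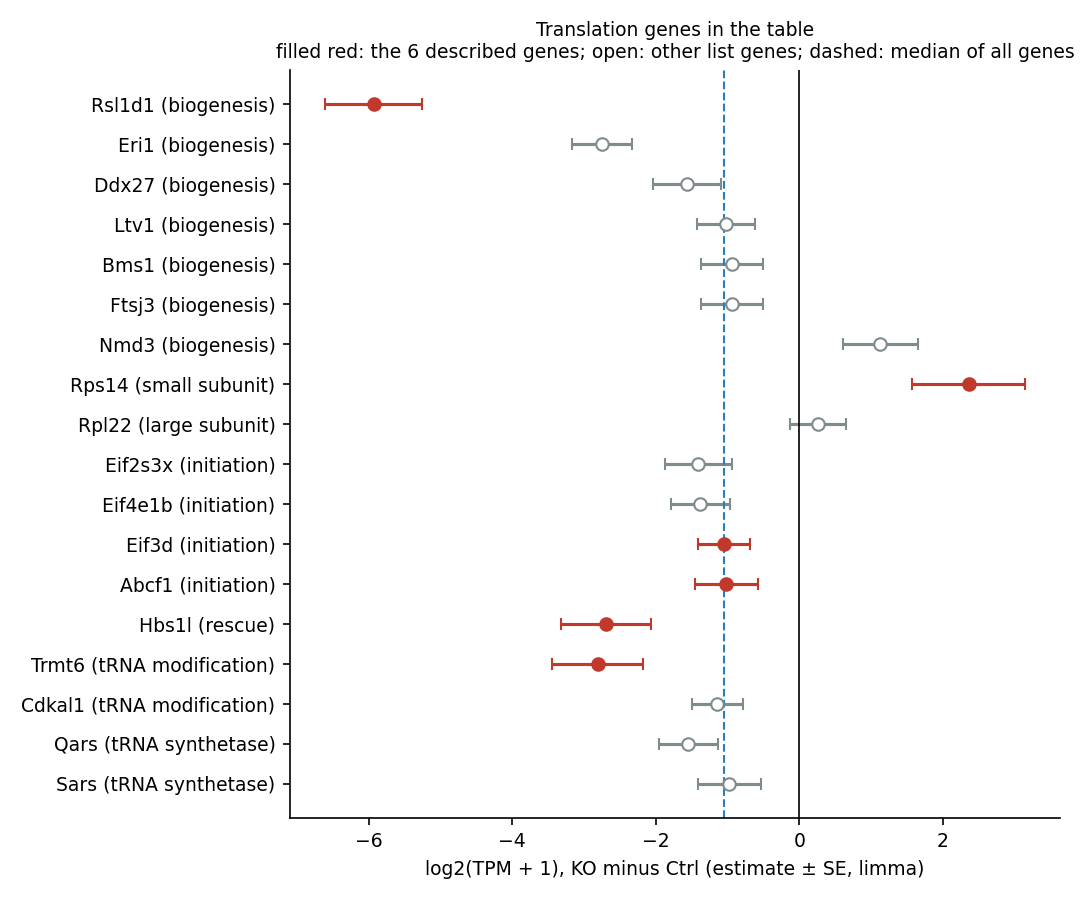
Log2 difference in log2(TPM + 1), KO minus Ctrl, with its SE from limma on the horizontal axis, for the 18 translation genes in the fit, ordered by role from ribosome assembly to tRNA synthetases. The 6 described genes are filled and the dashed line marks the median of all 402 genes, at -1.05: Rsl1d1, Hbs1l and Trmt6 lie left of it, Eif3d and Abcf1 on it and Rps14 right of 0.

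Calls of Eri1, Ddx27 and Qars passed in every setting that left out 1 library and under both rescalings, and that of Eif4e1b ended under median-of-ratios scaling (limma adjusted p = 0.14). The calls of Bms1, Ftsj3, Ltv1, Sars and Nmd3 ended in most of the settings that left out 1 library. Those of Bms1, Ftsj3, Ltv1 and Sars also ended under both rescalings, and that of Nmd3 under quantile normalization (limma adjusted p = 0.0527). The call of Eif2s3x ended without KO library 2 (limma adjusted p = 0.0545) or Ctrl library 2 (0.0582), and under median-of-ratios scaling (0.069). Without Ctrl libraries 2 and 4 together, an alternative added after seeing the data, 11 of the 12 genes outside the 6 were tested. Eri1 alone passed (Qars adjusted p = 0.08, Ddx27 adjusted p = 0.108, limma). Cdkal1 was not tested there, under median-of-ratios scaling, with the filter at 5 TPM or without Ctrl library 2 or 4. It passed in the settings where it was tested.

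Rescaling the libraries from the listed rows moved all genes. The median log2 difference over all genes was -0.31 under median-of-ratios scaling, a shift of 0.74, and -0.68 under quantile normalization, a shift of 0.37. Relative to the median of all genes, Rsl1d1 was at -4.88 in the deposited TPM, Trmt6 at -1.76, Hbs1l at -1.65, Eif3d at 0 after rounding, Abcf1 at 0.03 and Rps14 at 3.41. Each of the 6 kept its sign under both rescalings where it was tested. Eif3d was not tested under median-of-ratios scaling, where its mean was under 1 TPM.

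**Figure D4:**
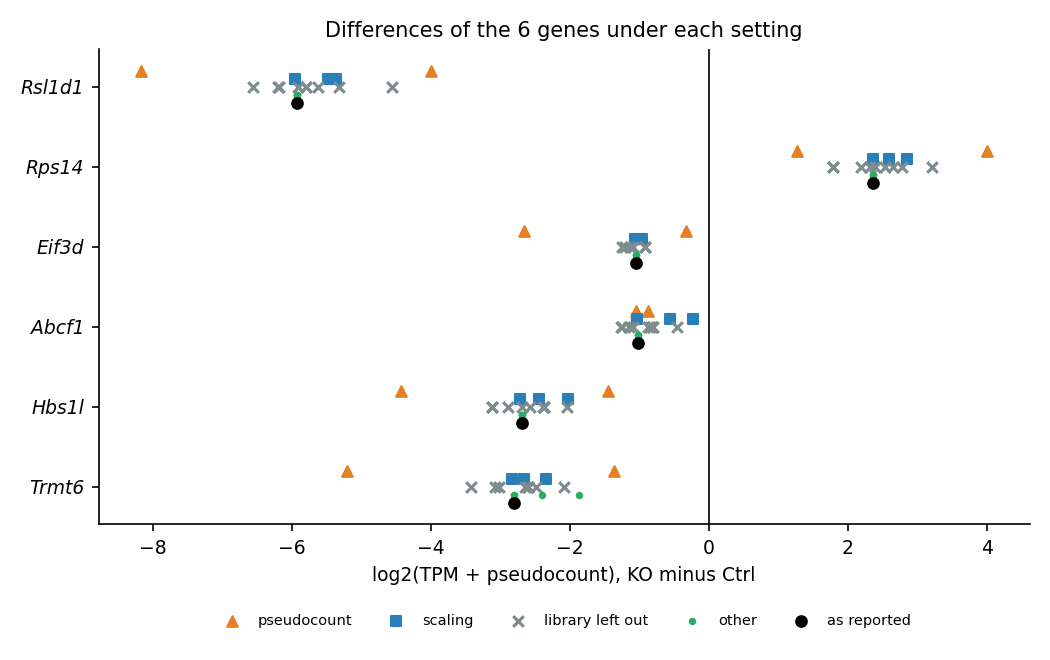
Log2 difference, KO minus Ctrl, of each of the 6 genes under each setting on the horizontal axis, with 1 symbol per kind of setting and the value as reported in black. Every symbol of Rps14 lies above 0 and every symbol of the other genes below 0, and the pseudocounts of 0.1 and 5 TPM give the widest range for all but Abcf1.

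The 6 genes did not share 1 pattern between libraries of the same group. After each value was set against its own group mean, the Pearson correlation over the 8 libraries ran from -0.76 between Hbs1l and Eif3d to 0.78 between Abcf1 and Rsl1d1. Its median was 0.11 over the pairs of the 6 and 0.07 over all pairs of genes tested. The points share their libraries, and 8 libraries give loose values. Ctrl library 4 was the highest Ctrl library for Rsl1d1, Abcf1 and Trmt6, and for 43.3% of all 402 genes. Ctrl library 2 was the highest for Rps14 and Hbs1l and for 23.4% of all genes, and Ctrl library 3 for Eif3d and 13.4%.

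The gene most like each member was taken as the one with the highest such correlation among 384 named genes, as a description. For Abcf1 it was Cep57, a centrosome protein (r = 0.99 over 8 libraries), at 1.04, 1.45, 2.44 and 4.18 TPM in KO libraries 1 to 4, against 5.13, 10.6, 4.62 and 13.0 TPM in Ctrl libraries 1 to 4. For Trmt6 it was the centrosome scaffold Cep192 (r = 0.98), which was likewise near 0 in KO libraries 1, 2 and 4 and at 3.15 TPM in KO library 3, followed by the splicing factor Srsf11 (r = 0.92), at 4.62 TPM in KO library 3. Trmt6, Cep192 and Srsf11 had their highest KO value in the same library, which the choice by correlation favours. For Rps14 it was Cldn20, a tight junction protein (r = 0.96), at 1.73 to 3.53 TPM in KO libraries, against 0.000191, 1.69, 0.899 and 2.62e-05 TPM in Ctrl libraries 1 to 4, followed by the deubiquitinase Usp15 (r = 0.85). Cldn20 and Rps14 were both at or near 0 in Ctrl libraries 1 and 4, which the choice by correlation likewise favours.

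For Rsl1d1 the nearest genes were the kinase Wnk1 (r = 0.95), at 0.287 to 1.39 TPM in KO and 2.11 to 7.82 TPM in Ctrl, and Akap8l (r = 0.93). Dennd1a correlated with Eif3d at r = 0.90. For Hbs1l the nearest were Mapkap1 (r = 0.82) and Atp6v0a1 (r = 0.82), which were both higher in KO, at 3.86 to 20.1 TPM against 0.00125 to 2.17 TPM for Mapkap1. A high correlation within groups therefore went with an opposite difference between groups for Hbs1l and Mapkap1. The second gene for Abcf1 was Prkcsh (r = 0.93).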

How the data were processed

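The deposited table holds TPM for 8 library columns, each matched to 1 sample by name. The submitters' processing notes name kallisto 0.46.2 and sleuth 0.30.1, with genome build GRCm38. How the authors chose the deposited rows, and from which annotation, is not given in the sources used here. Rows of one gene name were summed to 417 genes, and the 402 with a mean of at least 1 TPM were fitted as log2(TPM + 1), KO minus Ctrl, with limma 3.58.1 in R 4.3.3 (eBayes with trend, two-sided, Benjamini-Hochberg over all 402, threshold 0.05), after the step was tested on simulated data. The simulation held no selection of rows by their difference, so it says nothing about error rates in this preselected table. Fold changes on this scale understate changes of low genes, and zeros can be failed estimates. No count test was run, since TPM are not counts. No 2 libraries were identical.

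The 6 genes, the translation and marker lists, the tests and the alternatives were chosen with earlier results of these data known. Named genes are the 6, every other translation list gene with a row, and the 2 genes most like each of the 6, leaving out predicted genes and names turned into dates. A gene among these is not reported here. Positions and transcripts are from GENCODE M21, promoters from RefSeq, and copies from megablast (BLAST 2.17.0, 95% identity, 200 bp). Python 3.11.15, numpy 2.4.6, pandas 2.3.3 and matplotlib 3.10.9 served the rest. Alternatives were 2 pseudocounts, 2 filters, 3 scalings, eBayes without trend, a replicate block, rows kept apart, each library left out, and Ctrl libraries 2 and 4 left out together (added after seeing the data).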

Additional observations from a re-analysis of the deposited data

Results flagged for a closer look

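In 43 groups of 4 libraries, 5 values stood apart from the other 3 of their group by more than the 95% limit of Dixon's test, which chance passes in about 1 of 20 groups. For 4 of them the other 3 libraries were at 0, where any value above 0 passes and that rate does not apply. Trmt6 in KO library 3 was one, at 4.61 TPM both in the sum and in its second row, with the other KO libraries at 0. Eri1 in KO library 1 was at 0.613 TPM, Gigyf2 in KO library 4 at 0.573 TPM and Rpf2 in KO library 3 at 0.00473 TPM, each with the other KO libraries at 0. Ftsj3 in Ctrl library 4 was at 77.1 TPM, with the next Ctrl library at 35.1 TPM. The Ftsj3 call ended without Ctrl library 4 (log2 difference -0.60, limma adjusted p = 0.163). It also ended without Ctrl library 2 (limma adjusted p = 0.0784) and without any 1 of the KO libraries, so its loss was not particular to the flagged value. It passed without Ctrl library 1 (limma adjusted p = 0.0472) or Ctrl library 3 (0.0384).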

How the results depend on the processing

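No difference of the 6 genes changed sign in 104 recomputed values, of which 11 moved by more than the spread between libraries, all given above. Eif3d gave no value at a mean of at least 5 TPM, under median-of-ratios scaling, without Ctrl replicate 3 or 4, or without Ctrl replicates 2 and 4, since its mean was then under the filter. Of all genes, 147 were higher and 230 lower in KO (39.0% higher of those called). Median-of-ratios scaling gave 149 and 43 (77.6% higher) and quantile normalization 146 and 94 (60.8%); both were computed from preselected rows. A mean of at least 5 TPM gave 74 higher and 139 lower among 230 genes tested. With 1 library left out, higher calls ran from 71 to 139 and lower calls from 107 to 222. Leaving out Ctrl replicate 2 (71 higher, 107 lower), KO replicate 2 (71 and 138) or Ctrl replicate 4 (126 lower) moved a count by more than 1.5 times. Without Ctrl replicates 2 and 4 together, 26 were higher and 21 lower. The cause was not tested.

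Of the 12 tested translation list genes outside the 6, 10 were lower and 1 higher. Lower calls were 6 of 8 tested with the filter at 5 TPM, and 6 of 12 under quantile normalization or the replicate block. They were 3 of 11 under median-of-ratios scaling and 1 of 11 without Ctrl replicates 2 and 4 together. With 1 library left out they ran from 4 to 10. Without Ctrl replicate 2 they were 4 of 11, and without Ctrl replicate 4 they were 5 of 11. Without KO replicate 2 they were 5 of 12, and without KO replicate 4 they were 6 of 12. Higher calls were 2 under median-of-ratios scaling or with rows kept apart, 0 with pseudocounts of 0.1 or 5, the filter at 5 TPM, quantile normalization, the mitochondrially encoded genes left out, the replicate block or Ctrl replicates 2 and 4 left out together, and 0 to 1 with 1 library left out, and 1 only without KO replicate 3 or Ctrl replicate 1. Of 225 recomputed values of the other list genes, 66 lost and 2 gained a call and 1 changed sign, the first Rpl22 row (log2 difference -1.43). The replicate block gave 112 genes higher and 167 lower. The labels do not say whether the numbers pair the libraries. Same-numbered KO and Ctrl libraries correlated at -0.26, -0.20, -0.17 and 0.065 across genes, and no KO library correlated best with the Ctrl library of its own number. So few libraries, in preselected rows, cannot settle whether they were paired. Depth is unknown, so the precision of values near 0 is unknown.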
